A study of Mus musculus with 12 samples.

Results

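The interferon response genes described here are a list of 41 genes that encode interferon receptor chains, the transcription factors behind them and proteins that interferon induces, without the guanylate-binding GTPases and the chemokines. They were listed by gene name, with earlier results of these data known. A probe was found for 40 of the 41, and all 40 passed the filter on dim probes. All 40 were measured in 8 of 8 tumors as labelled, out of 20408 genes tested. Xaf1 had no probe under its current or an older symbol.

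Each of 8 mouse mammary tumors labelled ShcA-null was hybridised against a pool of NIC mammary tumors on 2-colour Agilent arrays, with the tumor in Cy5. A second array with the dyes swapped was made for 4 tumors, labelled tumors 1 to 4, so that 12 arrays were read. The 4 swapped arrays were on slide 3 and the first arrays on slides 1 and 2, so dye and slide cannot be told apart. Shc1 encodes the adaptor ShcA, which receptor tyrosine kinases use to signal, and in NIC mice a mammary promoter drives an activated Neu receptor and Cre recombinase from 1 transcript, so that Cre acts in the cells that carry the oncogene. Every value is therefore a ratio between tumors, with no normal mammary tissue on either side, and stromal and immune cells keep their own Shc1. The labels give no strain, age, number of animals in the pool or deleted part of Shc1. They number the tumors but do not say that each came from a different animal, so p-values cover only how these samples vary, which may be technical, and leave out the spread of the control, which is 1 pool.

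3 measured facts about the arrays bear on every value below. On the first arrays, Shc1 gave a log2 ratio of -2.05 in tumor 3 and between -0.03 and 0.71 in the other 7 tumors, and on the swapped arrays it was -2.22 on the one labelled tumor 2 and 0.45 to 0.74 on the other 3, so 7 of the 8 tumors did not show the loss of Shc1 RNA that their label names; a probe outside the deleted part would check nothing. Over all kept probes, the swapped arrays labelled tumors 2, 3 and 4 correlated best with the first arrays of tumor 3 (r = 0.817, against 0.142 with their own number), tumor 4 (0.392 against 0.134) and tumor 8 (0.681 against 0.294), while the one labelled tumor 1 matched tumor 1 (0.44). Where a gene had 2 or more probes at least 200 bases apart, the probe nearer the 5′ end read lower than the one nearer the 3′ end in tumor 6 (median difference of log2 ratios -0.83) and tumor 7 (-0.59), against -0.02 to 0.32 on the other 6 first arrays. Values are therefore given by array, the tumors are averaged as labelled for the test, and counts are given without tumors 6 and 7 and without the swapped arrays. In a fit with a dye term, the within-tumor correlation was -0.0274 as labelled and 0.928 by best match. If the best match holds, some averages mix 2 tumors, and the 8 labelled averages are not separate tumors in any test. Leaving out a labelled tumor can then keep its matching swapped array under another number.

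Interferons are secreted proteins that alert cells to infection and to misplaced nucleic acid. Type I interferons bind the Ifnar1 and Ifnar2 receptor chains and lead to a complex with Stat2 and Irf9 that binds interferon-stimulated response elements (ISREs), whereas interferon gamma binds Ifngr1 and Ifngr2 and acts through gamma-activated sites (GAS). The induced proteins block viral replication, degrade or edit RNA and feed back on the pathway, and in mammary tumors they can be made by the tumor cells and by the stromal and immune cells among them. In bulk RNA such as this, fewer cells of a type and less RNA per cell cannot be told apart.

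Before the values, the DNA upstream of 6 members is shown, 180 bases up to the base before the annotated start, because they hold letters of the ISRE or GAS type and include Oas3 and Irf8, which were called. The sequences are RefSeq's for the mouse build GRCm38.p6, read 5′ to 3′ on the strand of the gene, at chr4:156200819-156200998 (minus strand) for Isg15, chr19:34640709-34640888 (plus) for Ifit1, chr19:34583349-34583528 (plus) for Ifit3, chr12:26456453-26456632 (minus) for Rsad2, chr5:120777660-120777839 (minus) for Oas3 and chr8:120736178-120736357 (plus) for Irf8. Capitals mark matches to ISRE-type letters (GAAA, any 2 bases, GAAA, on either strand) in the first 5 and to GAS-type letters (TTC, any 3 bases, GAA) in Irf8.
Isg15: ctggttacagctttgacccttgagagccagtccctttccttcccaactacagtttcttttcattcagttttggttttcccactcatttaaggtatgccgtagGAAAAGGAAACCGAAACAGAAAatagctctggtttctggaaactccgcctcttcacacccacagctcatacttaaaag
Ifit1: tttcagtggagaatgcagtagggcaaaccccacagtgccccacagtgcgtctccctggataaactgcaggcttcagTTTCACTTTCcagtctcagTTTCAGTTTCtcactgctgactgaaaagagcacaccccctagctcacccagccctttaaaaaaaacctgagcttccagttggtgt
Ifit3: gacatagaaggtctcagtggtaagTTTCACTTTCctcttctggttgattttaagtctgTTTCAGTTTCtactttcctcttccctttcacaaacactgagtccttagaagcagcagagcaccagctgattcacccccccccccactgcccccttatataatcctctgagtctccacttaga
Rsad2: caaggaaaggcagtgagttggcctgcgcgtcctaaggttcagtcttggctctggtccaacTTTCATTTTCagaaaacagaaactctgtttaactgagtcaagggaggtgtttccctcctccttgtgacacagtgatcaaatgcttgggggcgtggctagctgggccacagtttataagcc
Oas3: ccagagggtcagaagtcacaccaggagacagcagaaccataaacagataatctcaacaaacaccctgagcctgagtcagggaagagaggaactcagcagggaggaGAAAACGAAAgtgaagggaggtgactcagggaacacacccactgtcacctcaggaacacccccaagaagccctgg
Irf8: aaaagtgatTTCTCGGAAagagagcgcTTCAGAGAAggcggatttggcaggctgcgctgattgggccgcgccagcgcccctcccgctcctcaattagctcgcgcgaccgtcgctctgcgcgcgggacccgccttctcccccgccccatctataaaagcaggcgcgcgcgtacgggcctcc
The 3 matches of Isg15 overlap one another, from 78 to 57 bases before the start, and those of Ifit1 and Ifit3 stand apart on the other strand. A window of 250 bases before the start was at hand for 32 of the 41 members. An ISRE-type match lay in 9 of these 32 (28.1%), against 3.46% of all 27025 genes with a window. The 9 were Bst2, Ifit1, Ifit3, Irf2, Isg15, Oas1a, Oas3, Rsad2 and Stat2. A GAS-type match lay in 9 of the 32 (28.1%), against 8.13% of all genes with a window. Bst2, Irf2 and Oas1a had both, and in Bst2 the 2 kinds overlap. A match is a run of letters and does not show that a factor binds there.

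**Figure D1:**
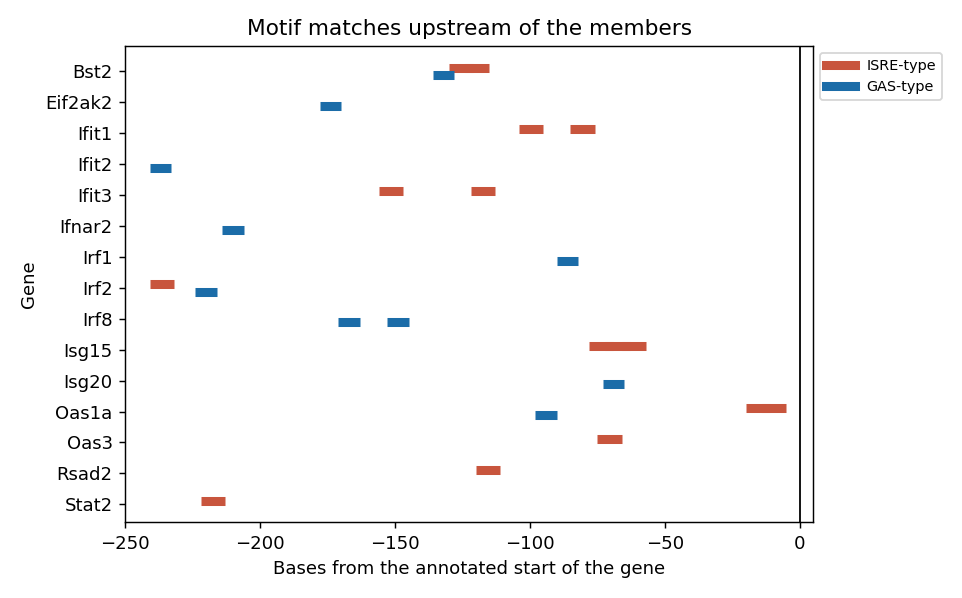
Positions of ISRE-type (red) and GAS-type (blue) letter matches in the 250 bases before the annotated start (x axis, bases from the start) of the members with any match. The nearest match ends 5 bases before the start, in Oas1a, and the farthest begin 241 bases before it, in Irf2 and Ifit2.

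Over the 8 tumors, 4 of the 40 members rose against the pool and none fell (limma on the mean log2 ratio against 0, Benjamini-Hochberg adjusted over all genes, called at an adjusted p under 0.05). The 4 were Oas3, Oasl1, Irf8 and Adar, read by probes that the array files place, in mm7 coordinates, at chr5:119987575-119987634, chr5:114158380-114158439, chr8:119391398-119391457 and chr3:89879736-89879795; no exon or UTR is named for them, since no mm7 annotation was used here. The same fit called 17.2% of all 20408 genes, 6.6% as higher and 10.6% as lower, so the members' share of higher calls (4 of 40) was near that of all genes. At an unadjusted p under 0.05, 8 members were higher and 3 (Irf3, Ifi27 and Rtp4) lower. The median of the members' mean log2 ratios was 0.23, against -0.02 over all genes, and 26 of 40 means (65%) were above 0, against 47.8% over all genes. The count of 4 became 10 without tumor 6 (22.2% of all genes called) and 1 without tumor 3 (12.2%). It became 2 without tumor 1, 4 or 7 (14.7%, 9.62% and 12.6%). Without tumors 6 and 7 together, an exclusion made after the data were seen, 13 of 40 members were higher and none lower, where 24.7% of all genes were called (9.78% as higher), and the members' median was 0.42; no member was lower at an unadjusted p under 0.05 either. Of these 13, 8 were also called on the first arrays without tumors 6 and 7, and Stat2, Irf1, Irf5, Dhx58 and Parp14 were not (limma adjusted p = 0.0656, 0.0786, 0.101, 0.152 and 0.308). On the first arrays alone the counts were 5 higher and 1 lower over 8 tumors (21.5% of all genes called). Without tumors 6 and 7 they were 11 higher and 1 lower (29.2% of all genes called).

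**Figure D2:**
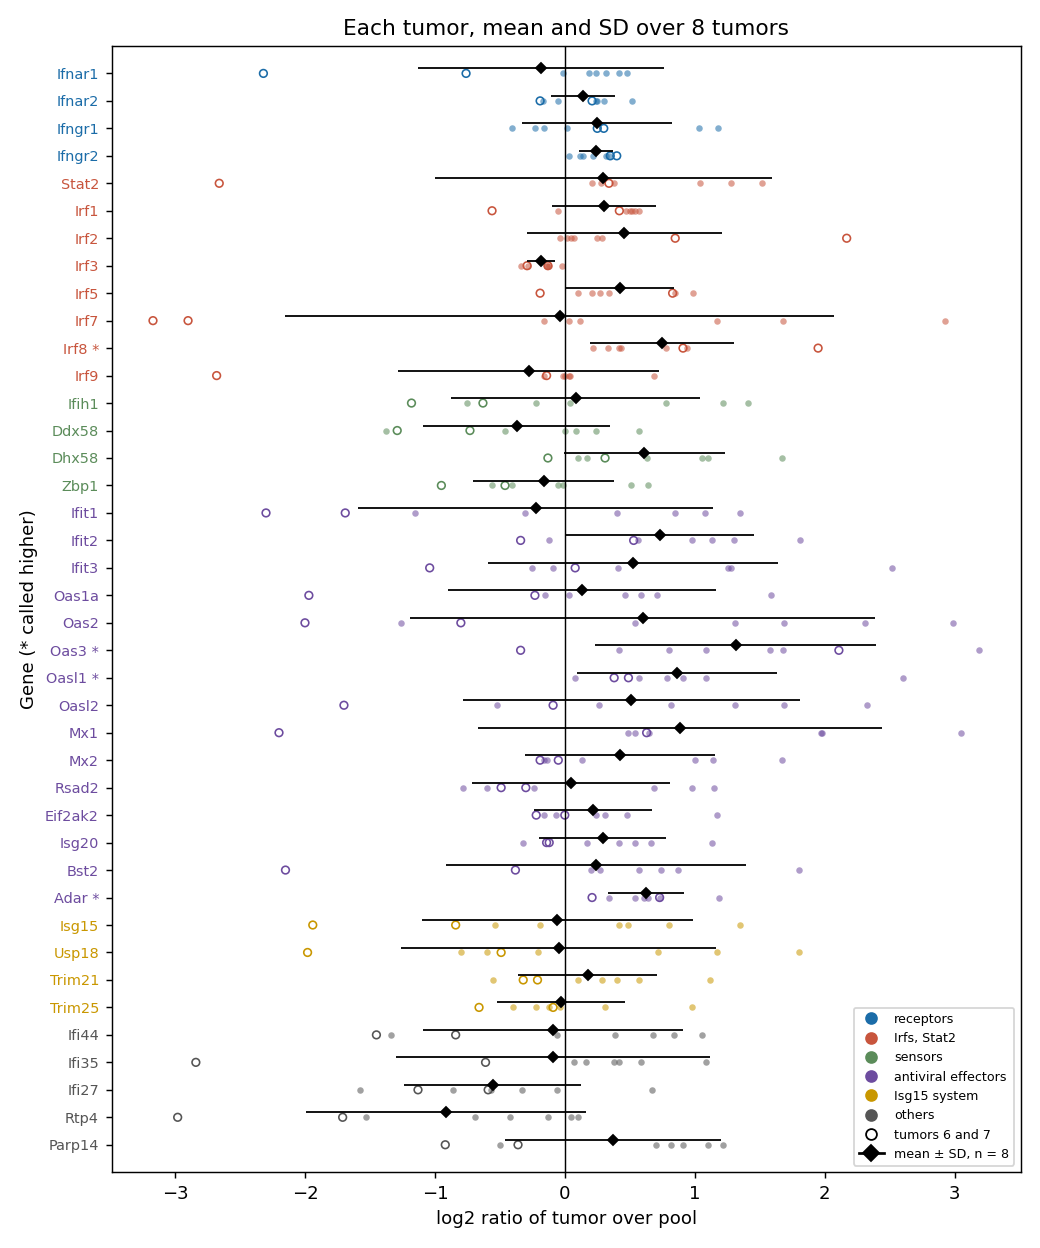
Log2 ratio of tumor over pool (x axis) for each of 40 members, with 8 tumors as points (tumors 6 and 7 as open circles), arrays averaged as labelled, and the mean and SD as black diamonds and bars. Oas3, Oasl1, Irf8 and Adar, marked with an asterisk, were called higher; the open circle of tumor 6 is the lowest point of 27 rows, and Irf7 has the widest SD.

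The receptor chains did not pass the test in either direction. Ifnar1, the chain that recruits Tyk2 to the type I receptor, had log2 ratios of 0.38, 0.59, 0.76, 0.72, 0.48, -2.32, -0.76 and 0.42 on the first arrays of tumors 1 to 8. It lay above the pool in 6 tumors and below it in tumors 6 and 7, but between -0.40 and 0.05 on the 4 swapped arrays. Its mean was -0.18 ± 0.95 (SD, n = 8; limma adjusted p = 0.697, exact sign-flip p = 0.758), and on the first arrays without tumors 6 and 7 it was 0.56 (limma adjusted p = 0.0053). Ifngr1, the ligand-binding chain of the interferon gamma receptor, ran from -0.81 in tumor 1 to 1.88 in tumor 3 on the first arrays (median -0.28), with 2.52 on the swapped array labelled tumor 2 and 0.35 to 0.54 on the other 3. Its mean, the highest of the 4 chains, was 0.25 ± 0.58 (SD, n = 8; limma adjusted p = 0.387). Ifngr2, its partner chain, was above the pool in 8 of 8 tumors as labelled, by 0.24 ± 0.13 (limma adjusted p = 0.0748, exact sign-flip p = 0.00781, the smallest that 8 tumors allow), where 4.85% of all genes lay above the pool in all 8 tumors. Its swapped arrays gave 0.05, 0.21, -0.22 and -0.07, the dye term of a limma fit with swapped arrays assigned by best match was 0.35 (adjusted p = 0.000128), the mean of its probes was -0.09, and averaging by best match put tumor 4 at -0.04. Ifnar2 had a mean of 0.14 ± 0.25 (limma adjusted p = 0.372).

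Among the interferon regulatory factors and Stat2, Irf8 rose and the other 7 were not called. Irf8, a factor of myeloid and B cell differentiation that interferon gamma induces, had first-array log2 ratios of 0.41, 0.50, 1.55, 0.73, 0.42, 0.91, 1.95 and 0.43 in tumors 1 to 8. All 8 were above the pool, with tumors 3 and 7 highest, and the 4 swapped arrays gave 0.04, 1.06, 0.34 and -0.06. The mean was 0.75 ± 0.55 (SD, n = 8), 1.68-fold, with a limma adjusted p of 0.0228 and an exact sign-flip p of 0.00781; without tumor 3 the adjusted p was 0.0552. A second Irf8 probe, 435 bases upstream by the array's coordinates, gave 0.37 ± 0.83 (limma adjusted p = 0.361 over all probes). Tumors 3 and 7 were also the highest first arrays for some lists of leukocyte markers: the median log2 ratio was 3.45 in tumor 7 and 1.20 in tumor 3 for the B cell and plasma cell list (7 of 8 genes tested), 3.17 and 1.18 for T cells (9 of 10 tested), and 1.33 and 1.12 for dendritic cells (9 of 9), while the other 6 tumors lay between 0.19 and 1.04, 0.08 and 0.93, and 0.09 and 0.75 for these lists. For macrophages and monocytes (10 of 10 tested) the median was 1.90 in tumor 3 but -0.07 in tumor 7, for plasmacytoid dendritic cells (8 of 9) 0.65 and -0.37, and for neutrophils (6 of 9) 2.05 and 1.05, with 1.49 in tumor 8. Tumors 3 and 7 were also the highest first arrays for natural killer cells (0.49 and 0.66) and for lists outside the leukocytes. Their medians were 0.99 and 1.25 for mammary epithelial cells and 0.73 and 1.82 for adipocytes. For fibroblasts they were 3.76 and 0.03, and for endothelial cells 1.02 and 0.45, with tumor 3 highest in both. The part of any of these cells in the Irf8 result was not tested.

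Irf7, the factor that amplifies type I interferon production, varied most. Its first-array log2 ratios were 1.63, 0.69, -0.17, 0.05, 0.03, -2.90, -3.17 and 2.93 in tumors 1 to 8, and 1.72, -0.45, -0.15 and 2.30 on the swapped arrays labelled 1 to 4. Tumors 1 and 8 were high, tumors 3 to 5 were at the level of the pool, and tumors 6 and 7 were low. The mean was -0.04 ± 2.11 (SD, n = 8; limma adjusted p = 0.974). Stat2, which carries the type I signal to the nucleus, was 1.15, 0.15, 0.12, 0.40, 0.28, -2.66, 0.34 and 1.52 on the first arrays, and 1.41, 0.26, 0.64 and 1.67 on the swapped ones. It was above the pool on every array but that of tumor 6; its mean was 0.30 ± 1.30 (limma adjusted p = 0.629), and 0.78 ± 0.57 without tumors 6 and 7 (n = 6, limma adjusted p = 0.0271). Irf9, the DNA-binding subunit of the same complex, was within 0.46 of the pool on 7 first arrays and at -2.68 in tumor 6, with 1.12 on the swapped array labelled tumor 1. It had the lowest mean of the factors, -0.28 ± 1.01 (limma adjusted p = 0.559).

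Irf1, Irf2 and Irf5 had means of 0.30 ± 0.40, 0.46 ± 0.75 and 0.43 ± 0.42 (limma adjusted p = 0.167, 0.209 and 0.0743). Irf1 and Irf5, which act in inflammatory gene induction, had values of 0.43 ± 0.23 and 0.46 ± 0.37 without tumors 6 and 7 and were then called higher (limma adjusted p = 0.0223 and 0.0465, n = 6). Irf3, the constitutive factor that starts interferon production, was the one member below the pool in 8 of 8 tumors as labelled, with a mean of -0.18 ± 0.11 (SD, n = 8; 1.13-fold higher in the pool, limma adjusted p = 0.143, exact sign-flip p = 0.00781), where 9.51% of all genes lay below in all 8. It read 0.14 on the first array of tumor 3, and averaging by best match put that tumor at 0.01. Under median centring in place of loess, which moved the median of all genes from -0.02 to 0.16, its mean was 0.18, and a second Irf3 probe gave -0.70 ± 0.59 (limma adjusted p = 0.04 over all probes).

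No sensor of nucleic acid was called. Dhx58, which encodes LGP2, a helicase that tunes the other RNA sensors, ran from -0.27 in tumor 3 to 1.67 in tumor 8 over 7 measured first arrays (median 0.31), and read 1.06, -0.08, 0.60 and 1.79 on the swapped ones. Its mean was 0.61 ± 0.62 (limma adjusted p = 0.0636, exact sign-flip p = 0.0234), and 0.79 ± 0.61 without tumors 6 and 7 (n = 6, limma adjusted p = 0.0328). Ddx58, which encodes the sensor RIG-I, ran from -1.38 in tumor 5 to 0.24 in tumor 8 on the first arrays (median -0.82), and from -0.01 to 1.08 on the swapped arrays. The swapped arrays read higher than most first arrays, and the mean of -0.37 ± 0.72 was not called (limma adjusted p = 0.287). Ifih1, encoding the sensor MDA5, and Zbp1, a sensor of Z-form nucleic acid, were highest in tumor 8 (1.41 and 0.64) and lowest in tumor 6 (-1.18 and -0.95) on the first arrays.

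The 15 antiviral effectors had the highest median of the 6 roles, 0.51, with 14 of 15 means above 0 (47.8% over all genes), and 3 of them rose (6.6% over all genes). Oas3, one of the synthases whose oligoadenylate activates RNase L, had first-array log2 ratios of 2.15, 1.14, 1.55, 0.80, -0.34, 2.11 and 3.19 in tumors 1 and 3 to 8, and was not measured on the first array of tumor 2. It was above the pool in 7 of 8 tumors as labelled and on all 4 swapped arrays (1.02, 0.42, 1.04 and 1.82). The value of tumor 2 (0.42) came only from the swapped array labelled tumor 2, which correlated best with tumor 3. By best match Oas3 had no value in tumor 2, so its 8 labelled values may not stand for 8 tumors. The mean was 1.32 ± 1.08 (SD, n = 8), 2.49-fold, with a limma adjusted p of 0.0267 and an exact sign-flip p of 0.0156; leaving out tumor 1, 3, 4 or 7 gave adjusted p-values of 0.0563, 0.0523, 0.0691 and 0.0647. It also lost the call in the limma fit with a dye term and tumor as a random block by best match (1.07, adjusted p = 0.083) and with Feature Extraction's processed signals (1.49, 0.0578). The second Oas3 probe, which lies upstream, gave 0.24 ± 0.98 (limma adjusted p = 0.621 over all probes). This probe was nearly as bright (mean log2 signal 9.22, against 9.27 for the one used). The mean of both probes was 0.79 and was not called (limma adjusted p = 0.0912).

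Oasl1, an Oas-like protein, had first-array values of 1.22, 1.22, 1.24, 0.74, 0.08, 0.38, 0.49 and 2.60. Every first array was above the pool with tumor 8 apart from the rest, and the swapped arrays gave 0.60, 0.37, -0.11 and 1.44. Its mean was 0.86 ± 0.77 (1.82-fold, limma adjusted p = 0.0388, exact sign-flip p = 0.00781), and it lost the call without tumor 1 (0.0715), 2 (0.072), 3 (0.0649), 4 (0.0916) or 7 (0.0598). With the dye term and tumor as a random block by best match, it was 0.58 (limma adjusted p = 0.14). In that fit the dye effect was 0.84 for Oasl1, 0.89 for Oas3 and 0.45 for Irf8 (limma adjusted p = 5.99e-05, 0.000803 and 0.000928). All of these read higher with the tumor in Cy5, and 63.2% of all genes had a dye effect in either direction. For Adar the effect was -0.16 (limma adjusted p = 0.0888). Adar, which edits adenosine to inosine in double-stranded RNA, had the smallest adjusted p among the members. Its first-array values were 0.42, 0.29, 0.65, 0.40, 0.34, 0.21, 0.73 and 1.19, and the swapped arrays gave 0.85, 0.79, 0.57 and 1.07. All 12 arrays were above the pool, and the mean was 0.63 ± 0.29 (1.54-fold, limma adjusted p = 0.00754, exact sign-flip p = 0.00781). It was called with any 1 tumor, as labelled, left out. The second Adar probe, 2208 bases upstream by the array's coordinates, gave -0.74 ± 1.00 (limma adjusted p = 0.14 over all probes), and the mean of both probes was -0.06 (limma adjusted p = 0.857), so the direction for Adar rests on the brighter probe.

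4 further effectors had the widest spread of their role. Oas2 was 2.35, 2.03, 1.03, -0.44, -1.26, -2.00, -0.80 and 2.99 on the first arrays, and 2.26, 1.36, 0.06 and 3.06 on the swapped arrays. Mx1, a dynamin-like GTPase that blocks viral nucleocapsids, was 2.18, 1.69, -0.16, 1.19, 0.49, -2.20, 0.63 and 3.05 on the first arrays, and 1.76, -0.40, 1.24 and 2.76 on the swapped arrays. Both were high in tumors 1, 2 and 8 and low in tumor 6, and neither mean was called: 0.60 ± 1.79 for Oas2 (limma adjusted p = 0.47) and 0.89 ± 1.56 for Mx1 (limma adjusted p = 0.224). Without tumors 6 and 7, Mx1 was higher by 1.45 ± 1.05 (n = 6, limma adjusted p = 0.0237) and Oas2 had 1.26 ± 1.49 (limma adjusted p = 0.102). Oasl2 was between -0.52 and 1.34 on 6 first arrays, with -1.70 in tumor 6 and 2.33 in tumor 8, and its swapped arrays gave 2.08, 0.30, 0.90 and 2.70. Its mean was 0.51 ± 1.30 (limma adjusted p = 0.395).

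Ifit1, which binds RNA that lacks the host's cap methylation, had the lowest mean of the effectors. Its first arrays gave 0.11, 0.95, -1.52, -0.86, -1.15, -2.30, -1.69 and 1.35, and its swapped arrays 2.05, -0.15, 0.90 and 2.57. The swapped arrays thus lay above most first arrays, and the mean of -0.22 ± 1.37 was not called (limma adjusted p = 0.738). In a limma fit that adds the dye as a term and assigns swapped arrays by best match, the dye effect of Ifit1 was -1.61 (limma adjusted p = 1.45e-05); 25 of 40 members (62.5%) and 63.2% of all genes had such an effect. Ifit2 had 0.73 ± 0.72 (limma adjusted p = 0.0568) and Ifit3 0.52 ± 1.12 (limma adjusted p = 0.317), with values of 1.81 and 2.52 in tumor 8. Without tumors 6 and 7, Ifit2 and Bst2, the tetherin that holds virus particles at the cell surface, were called higher at 0.94 ± 0.66 and 0.74 ± 0.58 (n = 6, limma adjusted p = 0.0235 and 0.0349). Mx2, Oas1a, Isg20 (an exonuclease of RNA), Eif2ak2 (the kinase PKR) and Rsad2 (the radical enzyme viperin) had means between 0.05 and 0.42. They were not called over 8 tumors or, with swapped arrays averaged in, over these 6. On the first arrays of these 6, Oas1a was called higher (0.79, limma adjusted p = 0.0183). Its swapped arrays gave 0.34, -0.81, -0.47 and 0.63, and its mean with the dye term by best match was -0.13. Oas1a, Ifit1 and Ifit3 have close copies nearby, so their probes may also read a copy, which was not tested.

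Of the Isg15 system, in which Isg15 is attached to other proteins as ubiquitin is, no member was called. Isg15 itself gave 0.84, 1.06, 0.14, -0.20, -0.54, -1.94, -0.84 and 1.35 on the first arrays and 0.76, -0.23, -0.51 and 1.17 on the swapped arrays. Tumors 1, 2 and 8 were well above the pool, tumor 3 near it and tumors 4 to 7 below it, and the mean was -0.06 ± 1.05 (limma adjusted p = 0.918). Usp18, the protease that removes Isg15, followed with 0.98, 1.10, -1.41, -0.43, -0.60, -1.98, -0.49 and 1.80 on the first arrays (mean -0.05 ± 1.21, limma adjusted p = 0.941). Trim21, a ubiquitin ligase that binds antibody in the cytosol, had the highest mean of this role, 0.18 ± 0.54 (limma adjusted p = 0.519). It ran from -0.55 to 0.40 on the first arrays (median -0.28) and from 0.69 to 1.85 on the swapped arrays, with no overlap between the 2 dye orientations. Trim25, another ligase of the pathway, had -0.03 ± 0.50 (limma adjusted p = 0.916).

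Of the 5 other measured genes, none was called over 8 tumors. Parp14, an ADP-ribosyltransferase, ran from -0.92 in tumor 6 to 1.22 in tumor 8 on the first arrays (median -0.04) and from 0.74 to 2.00 on the swapped ones. Its mean of 0.37 ± 0.83 (limma adjusted p = 0.345) became 0.71 ± 0.62 without tumors 6 and 7 (n = 6, limma adjusted p = 0.0485), but 0.33 on the first arrays of those 6 tumors (limma adjusted p = 0.308). Rtp4, an interferon-induced chaperone of membrane receptors, had the lowest mean of all 40 members, -0.92 ± 1.08 (limma adjusted p = 0.0896, exact sign-flip p = 0.0391). It was -0.86, -0.20, -1.58, -1.41, -1.53, -2.98, -1.71 and 0.10 on the first arrays, where it was called lower (mean -1.27, limma adjusted p = 0.0173), but 0.96, -0.64, 0.20 and 1.15 on the swapped arrays. Ifi35 was at -2.84 in tumor 6 and had -0.09 ± 1.21 (limma adjusted p = 0.883), and 0.45 ± 0.36 without tumors 6 and 7 (n = 6, limma adjusted p = 0.0484). Ifi44 had -0.09 ± 1.00 (limma adjusted p = 0.862). Ifi27, read by the probe whose accession names it, went against the others in tumor 8, where it had its lowest value, -1.58. Its mean was -0.56 ± 0.68 (limma adjusted p = 0.11). Ifi27 was called lower with the authors' value table (-0.78, limma adjusted p = 0.0147) and with Feature Extraction's processed signals (-0.85, 0.0315). The dye fit as labelled (-0.66, limma adjusted p = 0.048) and leaving out tumor 5 (-0.73, 0.0337) also called it lower. Under median centring its mean was 0.26, and on the first arrays of tumors 1 to 4 it was 0.20, neither called. Rtp4 was also called lower with the value table (-1.10, limma adjusted p = 0.0213).

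The members had a wider spread between tumors than most genes, with an SD above the all-gene median in 33 of 40. The median SD over the first arrays was 0.88 for the members and 0.50 for all genes, and the SD was at least 1 for 14 of 40 members (35%), against 13.7% of all genes. Tumor 8 had the highest first-array value of 29 of 40 members, against 12.3% of all genes, and 24 of 40 (60%) were at least 1 there, against 7.64% of all genes. Tumors 1 and 2 followed, with 11 of 39 members (28.2%) at least 1 in each, against 5% and 3.97% of all genes. The members' median was 1.16 in tumor 8, 0.59 in tumor 2, 0.51 in tumor 1, between -0.14 and 0.13 in tumors 3, 4, 5 and 7, and -0.94 in tumor 6. These are descriptions of single arrays and carry no test.

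**Figure D3:**
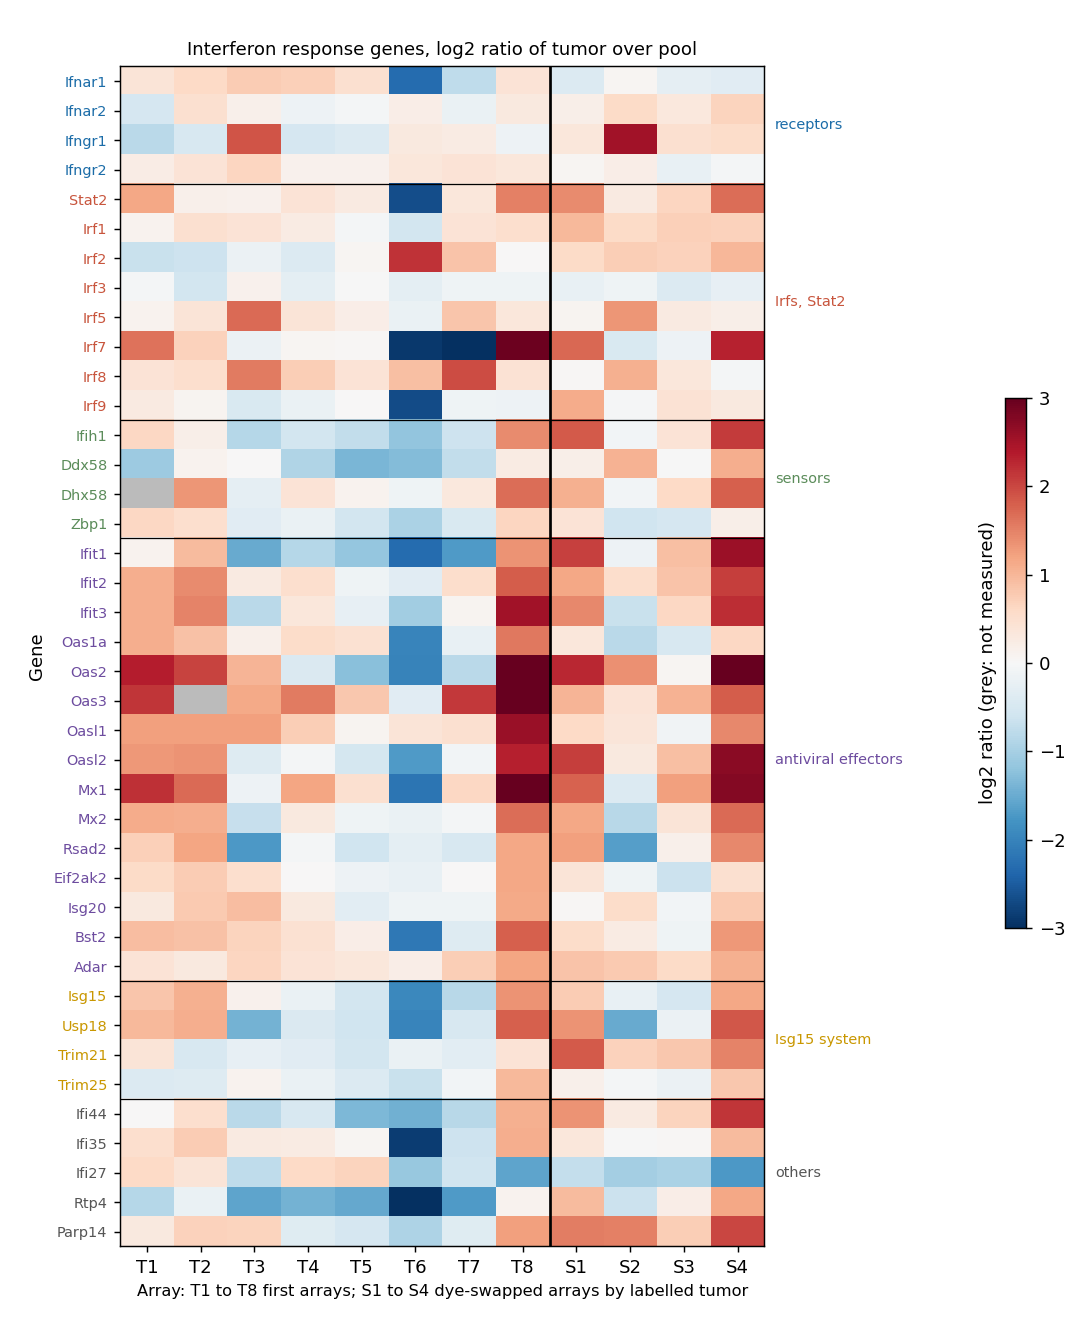
Log2 ratio of tumor over pool (colour, limited to the range from -3 to 3) of 40 members (rows, by role) on the 8 first arrays (T1 to T8) and the 4 dye-swapped arrays by labelled tumor (S1 to S4); grey cells were not measured. T1, T2, T8, S1 and S4 are mostly red, above all among the antiviral effectors, and T6 is mostly blue.

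Among the swapped arrays, the one labelled tumor 4, which correlated best with tumor 8, had a median of 1.16 and 23 of 40 members (57.5%) at least 1, against 6.84% of all genes. The one labelled tumor 1 had a median of 0.90, and those labelled tumors 2 and 3 had 0.13 and 0.30. As labelled, tumor 4 thus read 0.03 on its first array and 1.16 on the swapped one, and tumor 2 read 0.59 and 0.13; no swapped array is labelled tumor 5, 6, 7 or 8. 20 of 40 members were at least 1 both on the first array of tumor 8 and on the swapped array labelled tumor 4. The matching share of all genes was not counted, but it can be no larger than the 6.84% on that swapped array. These arrays also correlated over all kept probes (r = 0.681), so the likeness between them is not confined to the members. Tumor 3, where Shc1 read lowest, had a first-array median of 0.13, with 23 of 40 members above 0. In tumor 8 the leukocyte lists were low beside their highest arrays, with medians of 0.16 for T cells, 0.19 for B and plasma cells, 0.09 for dendritic cells, -0.24 for natural killer cells and 0.36 for macrophages and monocytes; the neutrophil list (6 of 9 tested) was at 1.49, second to 2.05 in tumor 3. The adipocyte (-1.42) and endothelial (-0.59) lists had their lowest first-array medians in tumor 8. Fibroblasts were at -1.13 there and -1.40 in tumor 1, and mammary epithelial cells at 0.58 and 0.28. The part of neutrophils or of any other of these cells in the pattern was not tested.

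**Figure D4:**
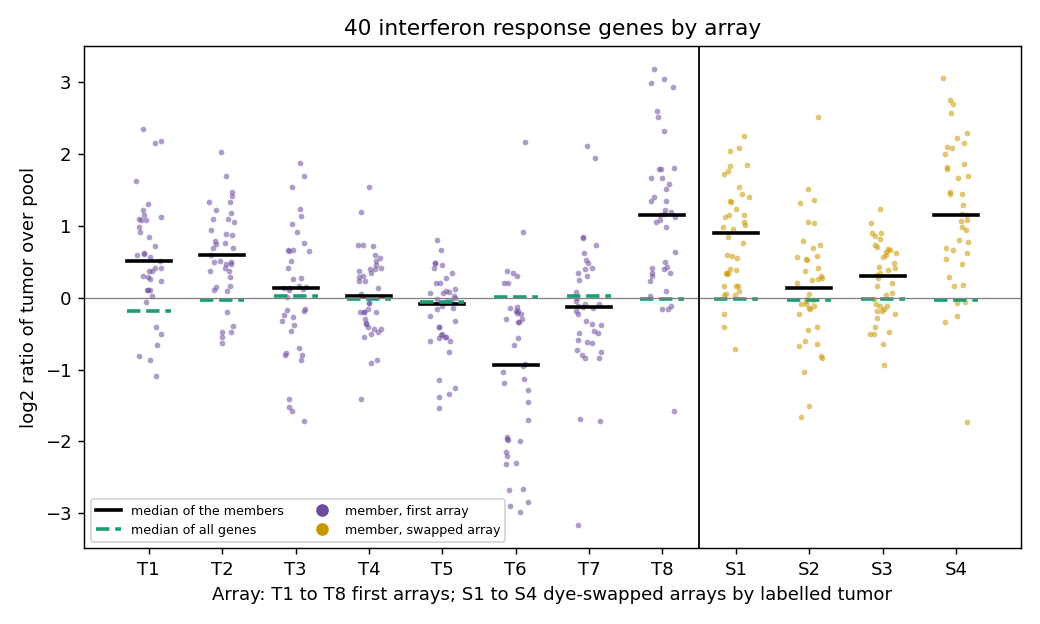
Log2 ratio of tumor over pool (y axis) of each member on the 8 first arrays (purple) and the 4 dye-swapped arrays (yellow), with the median of the members (black line) and of all genes (dashed green line). The members' median is 1.16 on T8 and on S4, -0.94 on T6, and the median of all genes stays between -0.19 and 0.03.

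In tumor 6, 25 of 40 members had their lowest first-array value, against 25.1% of all genes, and 19 of 40 (47.5%) were at most -1, against 21.5% of all genes. Tumor 6 also had the widest spread over all genes (interquartile range 1.41, against 0.52 to 0.92 on the other first arrays). In 20 members with 2 or more placed probes, the upstream probe differed from the downstream one by a median of -0.15 in tumor 6, -1.13 in tumor 7 and 0.10 in tumor 8. The lowest differences were -3.01 for Ifngr2, -2.45 for Irf8 and -2.44 for Ifih1 in tumor 6, and -3.50 for Ifngr2, -3.14 for Adar and -3.05 for Oas3 in tumor 7; Irf8, Adar and Oas3 are called members. For 18 of these 20 members the value used comes from the most downstream probe. The part of this gradient along the transcript in the low values of tumors 6 and 7 was not tested.

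**Figure D5:**
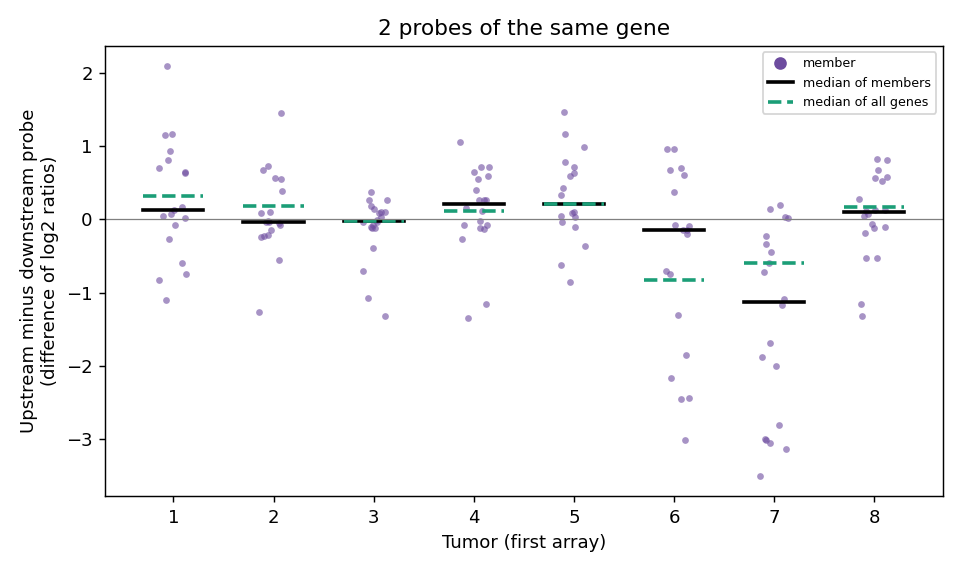
Difference between the log2 ratios of the upstream and the downstream probe (y axis) of the members with at least 2 placed probes, on the first array of each tumor (x axis), with the median of the members (black line) and of all genes (dashed green line). The points reach below -3 in tumors 6 and 7, where the all-gene medians are -0.83 and -0.59, and the medians of the other tumors lie near 0.

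The members with an ISRE-type match upstream (such as the Isg15, Ifit1 and Oas3 sequences above) and a value (9) had a median first-array SD of 1.13 and a median of 1.52 in tumor 8 and -1.94 in tumor 6. The 22 with a window but no match had 0.62, 0.74 and -0.32. The ranges in tumor 8 overlapped, 0.02 to 3.19 with a match and -0.16 to 2.93 without, and the difference was not tested.

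The rest of the pathway was described from lists chosen with earlier results known, and their counts stand beside 6.6% of all genes called higher and 10.6% lower. Of the interferon genes, 10 of 19 could be tested; Ifng, the type II interferon, was higher at 0.70 ± 0.47 (limma adjusted p = 0.0175, above the pool in 8 of 8 tumors; 0.0525 without tumor 4, and called without any other), and Ifnb1 had 0.65 ± 0.61 (limma adjusted p = 0.0515). Of 14 Jak-Stat genes, Socs1, which inhibits the Jak kinases, was higher at 0.50 ± 0.27 (limma adjusted p = 0.0152) and Jak1, the kinase shared by all interferon receptors, was lower at -1.22 ± 0.65 (limma adjusted p = 0.0062). The Jak1 values were -2.33 to -0.02 on the first arrays but -0.75 to 0.88 on the swapped ones. Those of Socs1 were -0.08 to 1.16 on the first arrays and 0.11 to 0.32 on the swapped ones. Of 13 genes that sense nucleic acid upstream of interferon, 3 were higher: Samhd1, which degrades deoxynucleotides, at 0.71 ± 0.62, the DNA sensor Aim2 at 0.66 ± 0.50, and Unc93b1, which escorts endosomal Toll-like receptors, at 0.54 ± 0.24 (limma adjusted p = 0.0384, 0.0265 and 0.00819). With 1 tumor left out, Samhd1 was called in 3 of 8 fits (highest adjusted p = 0.0919 in limma, without tumor 4) and Aim2 in 5 of 8 (0.0627, without tumor 2). Neither was called on the first arrays alone (0.105 and 0.0592) or by best match (0.12 and 0.054). Unc93b1 was 0.12 to 0.94 on the first arrays and -0.13 to 0.33 on the swapped ones.

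Of 38 further interferon-induced genes, 9 rose and 1 fell, with a median of 0.32, against 6.6% and 10.6% of all genes and a median of -0.02. The 5 largest were Epsti1 at 1.49 ± 0.61, Ly6e at 1.27 ± 0.95, the stem and lymphocyte antigen Ly6a at 1.07 ± 0.53, the viral entry inhibitor Ifitm3 at 1.02 ± 0.95 and Cd274, the immune checkpoint ligand PD-L1, at 1.00 ± 0.44 (limma adjusted p = 0.00229, 0.0189, 0.00514, 0.0438 and 0.00386). Epsti1 was above the pool on all 12 arrays, from 0.56 to 2.25. Ly6e was 0.87 to 3.19 on the first arrays and -1.08 to 0.04 on the swapped arrays, with no overlap. Ifitm3 was -0.05 to 2.98 on the first arrays and -0.49 to 0.95 on the swapped arrays. The gene that fell was Tdrd7, by 0.61 ± 0.47 (limma adjusted p = 0.0299), with -1.40 to 0.25 on the first arrays and -0.48 to 0.97 on the swapped arrays. With 1 tumor left out, Ifitm3 and Tdrd7 were each called in 3 of 8 fits, with the highest limma adjusted p (0.102 and 0.0715) without tumor 4.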

How the data were processed

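Per the file headers, the authors scanned 12 arrays with Agilent Feature Extraction 9.5.3.1 (design 014868, mm7 coordinates) and deposited intensity values per spot. The authors also deposited a table of log2 ratios, already turned to tumor over pool; its values were regressed on the log10 ratio of red over green that the authors deposited from Feature Extraction, taken to log2, with slopes of 0.758 to 0.797 on first and -0.748 to -0.715 on swapped arrays (median per array -0.0715 to 0.137), so its scale stays unsettled and it served as an alternative, although the rule for the list names it for the ratios. Here, limma 3.58.1 in R 4.3.3 corrected mean foreground and median background intensity by normexp (offset 50) and normalized within arrays by loess, giving control spots a weight of 0. Outlier spots were left out and the ratio turned to tumor over pool; spots, then arrays of a tumor, were averaged. A probe was kept if either channel was well above background in at least 4 tumors, and the brightest probe stood for a gene. Of 41174 gene probes 30838 were kept; probes were named by accession or symbol through RefSeq (GRCm38.p6), except 8455 that kept the file's name and 8 with an ambiguous symbol. The number of arrays limits precision. The fit was tested on simulated data. The single-member test flips the sign of each tumor (256 arrangements, two-sided, smallest p 0.0078). Alternatives changed signal, background, normalization, filter, probe choice, arrays, dye term, slide and tumors. The members and lists were chosen with earlier results of these data known. A gene of the Jak-Stat list is not reported here. Values per tumor are given for called members, the highest and lowest mean of each role, the 5 largest SDs, and Irf7, Irf9, Stat2, Isg15, Ifit1 and Ifnar1; other members, and alternatives without tumors 6 and 7, were named after their values were seen.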

Additional observations from a re-analysis of the deposited data

Results flagged for a closer look

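In 7 of 40 members 1 tumor lay farther from the other 7 than Dixon's limit for 8 samples allows (17.5%). The same holds for 16.3% of the 18892 genes measured in all 8 tumors, with tumor 6 outlying in 75.8% of them, where chance flags about 1 in 20 groups, so the members' share is near that of all genes. Tumor 6 was the outlying sample for Ifnar1 (-2.32), Stat2 (-2.66), Irf9 (-2.68) and Ifi35 (-2.84), all low, and for Irf2 (2.17), which was high. Tumor 7 was apart for Irf8 (1.95) and tumor 8 for Oasl1 (2.6). Tumors 6 and 7 are those in which upstream probes read low; the part of this in these values was not tested.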

How the results depend on the processing

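The median of the members stayed above 0 under every alternative but the first arrays of tumors 5 to 8 (-0.05), and was 0.12 to 0.29 with 1 tumor left out. Over 8 tumors, 4 members were higher, none lower and 17.2% of all genes called. With the value table of the authors, 7 were higher and 2, Ifi27 and Rtp4, lower (19.5% of all genes called). Feature Extraction's processed signals gave 6 and 1 (16%), and the mean of all probes gave 1 and 1 (16.6%). Median centring gave 10 and 0 (16.4%), with 71.1% of all calls then higher, against 38.4%. First arrays alone gave 5 and 1 (21.5%), also with slide as a term (20.7%). A dye term with tumor as a random block gave 9 and 1 as labelled (21.9% of genes called). By best match it gave 3 and 0 (Adar, Irf8 and Ifit2, without Oas3 and Oasl1), where 7.84% of genes were called. First arrays of tumors 1 to 4 (slide 1) gave 2 higher (4.62% of genes called) and those of tumors 5 to 8 (slide 2) gave 0 (1.4%; 2 members at an unadjusted p under 0.05). Leaving out 1 tumor gave 1 to 10 higher, 0 to 1 lower, and 9.62% to 22.2% of genes called. Chosen after seeing the data, averaging by best match gave 4 and 0 (11%). Leaving out tumors 6 and 7, chosen in the same way, gave 13 and 0 (24.7%), and first arrays without them 11 and 1 (29.2%). Among the single members, Adar turned to -0.06 with the mean of its probes; Ifi35 turned to 0.45, and 0.49 on first arrays, and Ifnar1 to 0.56 on first arrays, without tumors 6 and 7. The cause was not tested. Over all members and alternatives, 915 values kept their direction or moved by under 1 SD with the call unchanged, 50 gained and 22 lost the call, and 7 uncalled values moved by over 1 SD. No paired analysis was possible because there is 1 group of tumors. All 40 members were well above background in the pool on all 12 arrays, and Oas3 and Mx1 on 11 of 12 in the tumor channel.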

Other observations

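Several probes read interferon-induced genes that share a name with a member. The array calls 3 further probes Ifi27: those whose accession names Ifi27l2a had mean log2 ratios of 0.01 ± 1.47 and 0.15 ± 1.21, and 1 that could not be assigned had -0.08 ± 1.51 (SD, n = 8), against -0.56 ± 0.68 for Ifi27 itself. The file places the Isg15 probe on chromosome 17 in mm7, whereas RefSeq places the gene on chromosome 4 in GRCm38.p6.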
